A study of Homo sapiens with 6 samples.

Results

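The MAP kinase phosphatases are dual-specificity phosphatases that remove phosphate from both the threonine and the tyrosine of the activation loop of MAP kinases, and so switch ERK, p38 and JNK off. They were chosen by name, as the count table rows whose gene ID maps to DUSP1, DUSP2, DUSP4, DUSP5, DUSP6, DUSP7, DUSP8, DUSP9, DUSP10 or DUSP16, and 9 of the 10 listed genes were found among the 34371 features. DUSP16 was not analysed here. The cells were ME-1, a human acute myeloid leukaemia line known for the CBFB::MYH11 fusion. All had been transduced and selected: the SPNS2 group (3 libraries) with a vector carrying SPNS2, which moves sphingosine-1-phosphate out of cells, and the empty vector group (3 libraries) with no insert. The sources used here give neither the promoter of the vector nor whether the selected cells were a pool or clones.

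Many of these phosphatases are feedback inhibitors: in many cell types their genes are switched on by the kinase pathway that they then restrain. DUSP6, DUSP7 and DUSP9 act in the cytoplasm and prefer ERK, DUSP5 acts on ERK in the nucleus, DUSP8, DUSP10 and DUSP16 prefer JNK and p38, and DUSP1, DUSP2 and DUSP4 are nuclear enzymes with a broader choice of kinase. The series title names MAPK signalling, so the comparison asks which of these brakes differed between cells with added SPNS2 and cells with the empty vector, and whether ERK-selective members differed from JNK and p38-selective ones.

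The libraries held 28605187 to 38489992 counts. A count of 0 in a library allows up to 0.0779 to 0.105 CPM, the usual depth-normalised read count. This limit uses the unscaled library totals and covers counting error only. All other CPM values here use TMM-scaled library sizes. The vector SPNS2 row had 25283, 24792 and 25752 counts in the SPNS2 libraries and 9, 3 and 0 in the empty vector libraries. The separate row of the SPNS2 gene averaged 50.5 CPM with SPNS2 and 42.6 CPM with the empty vector. Its log2 fold change was 0.25 (adjusted p = 0.00166 by the edgeR test), so the empty vector cells also held SPNS2 mRNA. Myeloid markers summed to 27900 to 29400 CPM with SPNS2 and 28000 to 28500 CPM with the empty vector, nearly all of it MPO, so the sum says little of the other markers. Several of those differed by the edgeR test: CD33 averaged 22.9 CPM with SPNS2 and 37.4 CPM with the empty vector (adjusted p = 2.45e-06), CD34 averaged 101 CPM with SPNS2 and 120 CPM with the empty vector (adjusted p = 0.000397), and KIT averaged 2290 CPM with SPNS2 and 1570 CPM with the empty vector (adjusted p = 3.68e-08). PTPRC also rose, at 1.20-fold (adjusted p = 0.00056), while SPI1 (adjusted p = 0.246) and MPO (adjusted p = 0.816) did not pass. MYH11, the 3′ partner of the fusion, had 14, 2 and 6 counts in the SPNS2 libraries and 4, 8 and 5 in the empty vector libraries. CBFB, the other partner, averaged 54.6 CPM with SPNS2 and 52.1 CPM with the empty vector. So few MYH11 counts do not show the fusion transcript, and its presence in these libraries was not tested. Of the markers of other cells, HBB, HBA1, MS4A1 and KRT18 were at 0 in all 6 libraries. T cell markers summed to 0.895 to 0.923 CPM with SPNS2 and 0.389 to 0.597 CPM with the empty vector. Nearly all of that sum was CD3E (adjusted p = 0.0298 by edgeR), and CD3D and TRAC had 0 or 1 counts in each library. B cell markers summed to 6.30 to 6.45 CPM with SPNS2 and 5.34 to 6.24 CPM with the empty vector. EPCAM, an epithelial adhesion molecule, averaged 142 CPM with SPNS2 and 124 CPM with the empty vector (adjusted p = 0.00137 by edgeR). Of the other epithelial markers, KRT8 averaged 0.236 CPM with SPNS2 and 0.277 CPM with the empty vector, and CDH1 0.237 CPM and 0.145 CPM. The part of these markers in the results below was not tested. Whether the libraries within a group are separate cultures is not stated, so p-values measure only the spread between these libraries, which may be technical.

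In short, 3 of the 9 phosphatases fell with SPNS2, against 12.6% of all features tested: DUSP6 to 0.488 times its level in the empty vector cells, DUSP4 to 0.617 times and DUSP7 to 0.882 times. Among JNK and p38-selective members, DUSP10 did not pass the test and DUSP8, barely expressed, rose, as did 11.9% of all features. The rise of DUSP8 passed in only 3 of the 6 fits with a library left out. Only its counts in the SPNS2 libraries took DUSP8 past the filter on low counts, which favours a rise. Features of either direction that passed made up 24.5% of those tested. The other 4, DUSP1, DUSP2, DUSP5 and DUSP9, did not pass.

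DUSP8 was the only member called higher, at low counts and not in every alternative setting. Its promoter is shown with those of DUSP6, which fell most, and of DUSP1, an early response gene that did not pass. These promoters were chosen by those calls. Each is the 250 bases before the start site in RefSeq (GRCh38.p14), 5′ to 3′ on the gene's own strand, which is the minus strand for all of them. They lie at chr12:89352502-89352751 for DUSP6, chr5:172771196-172771445 for DUSP1 and chr11:1572272-1572521 for DUSP8. Capitals mark the cAMP response element TGACGTCA, the ETS core CGGAAG and the CCAAT box CCAAT, each on either strand.
DUSP6: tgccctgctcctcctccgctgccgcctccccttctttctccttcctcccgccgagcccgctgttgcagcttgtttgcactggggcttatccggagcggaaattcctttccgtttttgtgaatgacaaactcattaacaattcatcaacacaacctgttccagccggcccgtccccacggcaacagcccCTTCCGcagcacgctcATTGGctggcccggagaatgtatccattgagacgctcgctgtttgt
DUSP1: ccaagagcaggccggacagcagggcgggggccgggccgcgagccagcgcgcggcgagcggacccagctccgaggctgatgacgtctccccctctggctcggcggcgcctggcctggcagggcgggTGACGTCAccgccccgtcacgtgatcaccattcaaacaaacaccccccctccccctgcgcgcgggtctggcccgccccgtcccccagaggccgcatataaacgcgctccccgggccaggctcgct
DUSP8: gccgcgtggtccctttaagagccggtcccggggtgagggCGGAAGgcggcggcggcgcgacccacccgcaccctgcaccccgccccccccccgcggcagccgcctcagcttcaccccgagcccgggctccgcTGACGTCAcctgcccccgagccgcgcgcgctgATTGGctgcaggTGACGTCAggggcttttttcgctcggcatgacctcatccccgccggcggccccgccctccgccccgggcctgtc

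None of the 5 motifs searched stood only in the windows of members that fell. Windows were matched for 8 of the 10 listed genes, DUSP4 and DUSP5 being those without one, and DUSP9 and DUSP10 have 2 start sites each. TGACGTCA stood in the windows of DUSP1 and DUSP8 and in 1.65% of all 35116 promoter windows. The ETS core CGGAAG stood in those of DUSP6 and DUSP8 and in 16.5% of all windows. CCAAT stood in those of DUSP6, DUSP8 and DUSP10, with 4 copies in one of the DUSP10 windows, and in 32.0% of all windows. The E-box CACGTG stood in those of DUSP1 and DUSP2 and in 6.34% of all windows. The AP-1 motif TGANTCA stood in none of the members' windows and in 6.57% of all windows. No motif contains another, and those that read the same on both strands were counted once. DUSP7, which fell, had none of the 5 motifs in its window, and neither did DUSP9, which did not pass.

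DUSP6 (ENSG00000139318.8), the cytoplasmic phosphatase of ERK that is also called MKP3, had 40.2, 36.8 and 37.6 CPM in the SPNS2 libraries, against 76.2, 81.2 and 77.8 CPM in the empty vector libraries. Every SPNS2 library lay below every empty vector library by a wide margin. The log2 fold change was -1.04 (SE 0.0407, 95% interval -1.13 to -0.95, adjusted p = 4.65e-08 by the edgeR quasi-likelihood test, n = 3 each), a fall of 51.2%. This was the 68th lowest log2 fold change among the 13308 features tested and the 9th smallest p-value. The result was carried by 1303, 1155 and 1267 counts with SPNS2 and 2936, 2312 and 2508 counts with the empty vector, so counting error was small. In bulk RNA, fewer cells of a type and less RNA per cell cannot be told apart. An antisense gene annotated by GENCODE 29 on the opposite strand shares 36.7% of the 31-base words of the longest DUSP6 transcript; the kit keeps strand, but whether the counting used it is not stated, and without strand the reads of both genes cannot be told apart.

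DUSP7 (ENSG00000164086.10), a close relative of DUSP6 with the same preference for ERK, had 50.1, 51.3 and 47.9 CPM with SPNS2, against 57.5, 56.9 and 54.7 CPM with the empty vector. The groups did not overlap, but the gap was small, at a log2 fold change of -0.18 (SE 0.0363, 95% interval -0.26 to -0.10, adjusted p = 0.00435 by edgeR). Groups that do not overlap were common in this table, at 40.1% of the features tested.

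DUSP9 (ENSG00000130829.18), the last of the cytoplasmic group, had 17.6, 18.1 and 18.6 CPM with SPNS2, against 19.7, 18.0 and 18.2 CPM with the empty vector. The groups overlapped, and the log2 fold change of -0.05 had a 95% interval of -0.16 to 0.07 (adjusted p = 0.598 by edgeR). DUSP5 (ENSG00000138166.6), the nuclear member that binds and inactivates ERK alone, had 9.35, 9.68 and 9.79 CPM with SPNS2, against 8.87, 11.3 and 9.59 CPM with the empty vector. The SPNS2 values lay inside the spread of the empty vector libraries, with a log2 fold change of -0.04 and an interval of -0.24 to 0.16 (adjusted p = 0.793 by edgeR). The intervals of DUSP5 and DUSP9 stop well short of a fall of the size seen for DUSP6.

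**Figure D1:**
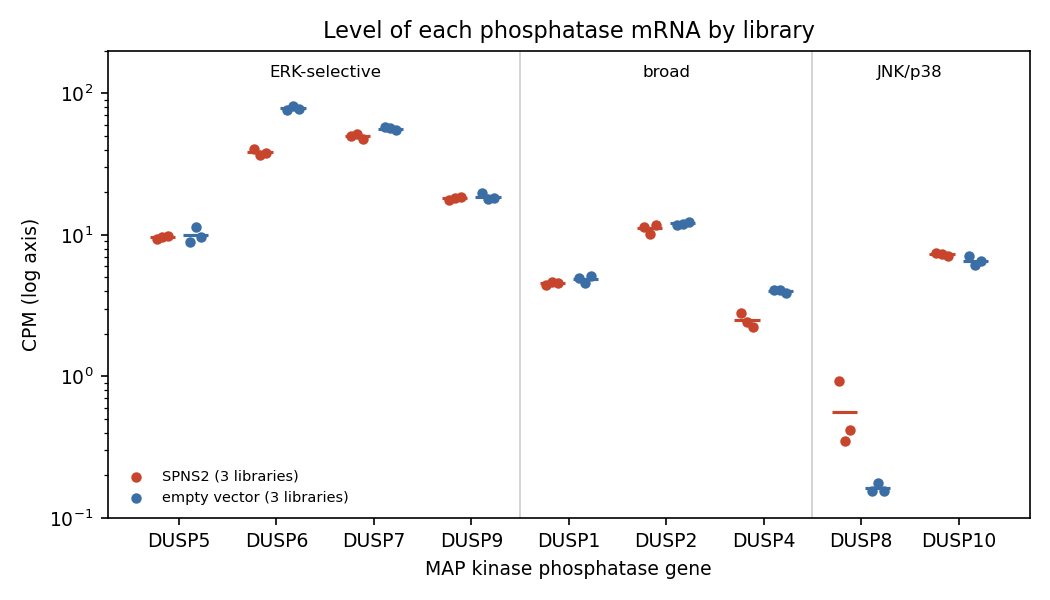
CPM of each phosphatase mRNA on a log axis, with 1 point per library and a line at the group mean, SPNS2 libraries left of empty vector libraries for each gene. DUSP6 stands at 36.8 to 40.2 CPM in the SPNS2 libraries, below 76.2 to 81.2 CPM in the empty vector libraries, while most other genes lie side by side.

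Among the broad nuclear members, DUSP4 fell and the other pair did not pass. DUSP4 (ENSG00000120875.9), which acts on ERK and JNK and is itself induced by ERK signalling, had 2.81, 2.42 and 2.22 CPM with SPNS2, against 4.10, 4.07 and 3.91 CPM with the empty vector. The empty vector libraries were tightly grouped and all above the SPNS2 libraries, and the log2 fold change was -0.70 (SE 0.128, 95% interval -0.98 to -0.42, adjusted p = 0.00253 by edgeR). DUSP1 (ENSG00000120129.6), an early response gene that acts on p38 and JNK as well as ERK, had 4.44, 4.65 and 4.54 CPM with SPNS2, against 4.98, 4.60 and 5.12 CPM with the empty vector. The groups overlapped in DUSP1 through empty vector library 2, and its log2 fold change was -0.11 (95% interval -0.33 to 0.11, adjusted p = 0.478 by edgeR). DUSP2 (ENSG00000158050.5), a phosphatase of activated blood cells, had 11.4, 10.1 and 11.8 CPM with SPNS2, against 11.7, 12.0 and 12.4 CPM with the empty vector. Its groups also overlapped, with a log2 fold change of -0.11 (95% interval -0.27 to 0.05, adjusted p = 0.302 by edgeR).

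On the JNK and p38 side, DUSP10 was the only member with a moderate level. DUSP10 (ENSG00000143507.18) had 7.50, 7.29 and 7.09 CPM with SPNS2, against 7.08, 6.11 and 6.52 CPM with the empty vector. The SPNS2 libraries lay just above, the lowest of them next to empty vector library 1, and the log2 fold change of 0.15 did not pass (95% interval -0.05 to 0.34, adjusted p = 0.267 by edgeR). A rise of up to 1.27-fold lies within that interval, and a fall like that of DUSP6 does not.

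DUSP8 (ENSG00000184545.11) was close to the limit of detection, with 30, 11 and 14 counts in the SPNS2 libraries and 6, 5 and 5 in the empty vector libraries. These counts correspond to 0.926, 0.350 and 0.415 CPM with SPNS2, against 0.156, 0.176 and 0.155 CPM with the empty vector. The fitted log2 fold change was 1.78 (SE 0.476, 95% interval 0.73 to 2.83, adjusted p = 0.0191 by edgeR). Only the counts of the SPNS2 libraries took DUSP8 past the filter on low counts, which favours a difference, and without any filter its adjusted p was 0.00818. SPNS2 library 1 held more counts than any other library, and without it the log2 fold change was 1.23 (adjusted p = 0.110 by edgeR). Leaving out empty vector library 1 or 3 also took the adjusted p above 0.05, to 0.0550 and 0.0602. The adjusted p ranged from 0.00818 to 0.110 over the alternatives that gave one.

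The count of DUSP8 is uncertain because of near copies of the gene. Of the 31-base words of its longest transcript, 6.99% stand in transcripts of other genes, the most of them in the pseudogene DUSP8P5. DUSP8P5 had 7.87, 7.32 and 7.89 CPM with SPNS2, against 6.77, 6.53 and 6.55 CPM with the empty vector, well above DUSP8 itself. The log2 fold change of DUSP8P5 was 0.22 (adjusted p = 0.0793 by edgeR). With the counts of the rows DUSP8P1 and DUSP8P5 added to DUSP8, an alternative chosen after the data were seen, the log2 fold change was 0.28 (adjusted p = 0.0295 by edgeR). For the other members with a row, apart from DUSP6 above, 0% to 0.67% of these words were shared.

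**Figure D2:**
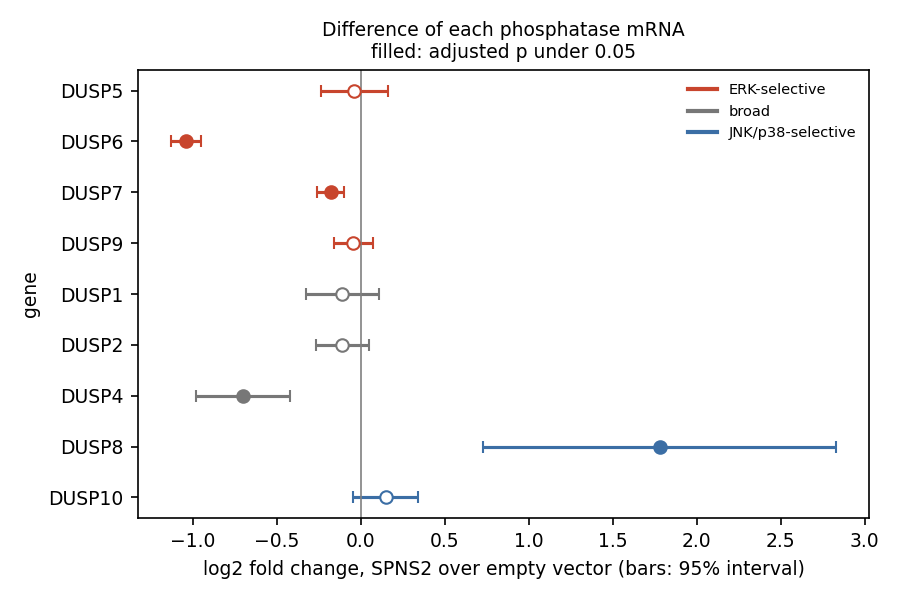
Log2 fold change of each phosphatase, SPNS2 over empty vector, with its 95% interval from the edgeR fit and filled points where the adjusted p was under 0.05. DUSP6 (-1.04), DUSP4 (-0.70) and DUSP7 (-0.18) lie left of 0, and the interval of DUSP8 (0.73 to 2.83) is the widest.

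Counted by class, 2 of 4 ERK-selective members fell and none rose, with a median log2 fold change of -0.11. Of the 2 JNK and p38-selective members tested, 1 rose and none fell, with log2 fold changes of 0.15 and 1.78. That rise is DUSP8, which did not pass in 3 of the 6 fits with a library left out and was given no adjusted p by DESeq2. DUSP8 was tested only because its counts in the SPNS2 libraries took it past the filter, which favours a rise. With a filter at a mean CPM of at least 1 it was not tested, and 0 members of the class were called higher. Of the 3 broad members, 1 fell. Among all features, 12.6% fell and 11.9% rose. Over all 13308 features the median log2 fold change was 0.003. With so few genes in a class, these shares describe the members and are no test of the class. The median absolute log2 fold change of all features that passed was 0.21; DUSP6 and DUSP4 lay above it and DUSP7 below it.

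The difference between DUSP6 and the JNK and p38-selective members was measured within each library, where the scaling cancels. The log2 ratio of DUSP6 to DUSP10 was 2.41, 2.32 and 2.40 in the SPNS2 libraries, against 3.42, 3.72 and 3.57 in the empty vector libraries. Its mean was 2.38 ± 0.0469 with SPNS2 and 3.57 ± 0.152 with the empty vector (SD, n = 3 each), a difference of -1.19. The log2 ratio of DUSP6 to DUSP8 was 5.35, 6.49 and 6.30 with SPNS2, against 8.46, 8.42 and 8.49 with the empty vector, a difference of -2.41. That ratio rests on the low and uncertain counts of DUSP8 described above. In both ratios the groups did not overlap, as in 40.1% of single features tested. The exact two-sided permutation test gave p = 0.1 (adjusted over 2 ratios, 0.1), the smallest p that 3 libraries against 3 allow. The comparison therefore could not reach 0.05. Both ratios share the same DUSP6 values, so they are not independent of its fall or of each other. DUSP6 was the ERK-selective member that fell most, while DUSP5 and DUSP9 had log2 fold changes of -0.04 and -0.05. The ratios therefore describe DUSP6 and not its class.

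DUSP6 also fell relative to members of its own class. The log2 ratio of DUSP6 to DUSP7 was -0.32, -0.48 and -0.35 in the SPNS2 libraries, against 0.41, 0.51 and 0.51 in the empty vector libraries, so the sign of the ratio differed between the groups. Against DUSP9 the mean log2 ratio was 1.07 ± 0.101 with SPNS2 and 2.07 ± 0.114 with the empty vector, and against DUSP5 it was 1.98 ± 0.0988 with SPNS2 and 2.98 ± 0.128 with the empty vector (SD, n = 3 each). Against DUSP4, the other member with a large fall, the difference was the smallest, with a mean of 3.91 ± 0.117 with SPNS2 and 4.26 ± 0.0575 with the empty vector (SD, n = 3 each). These ratios, with those to DUSP1 and DUSP2, were chosen after the data were seen. All 6 share the same DUSP6 values, so they are not independent of its fall or of each other. For all 6 the groups did not overlap, as in 40.1% of single features tested. The share among other ratios was not computed. The exact two-sided permutation p was 0.1, also after adjustment over the 6, and adds no support beyond the fall of DUSP6 itself.

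**Figure D3:**
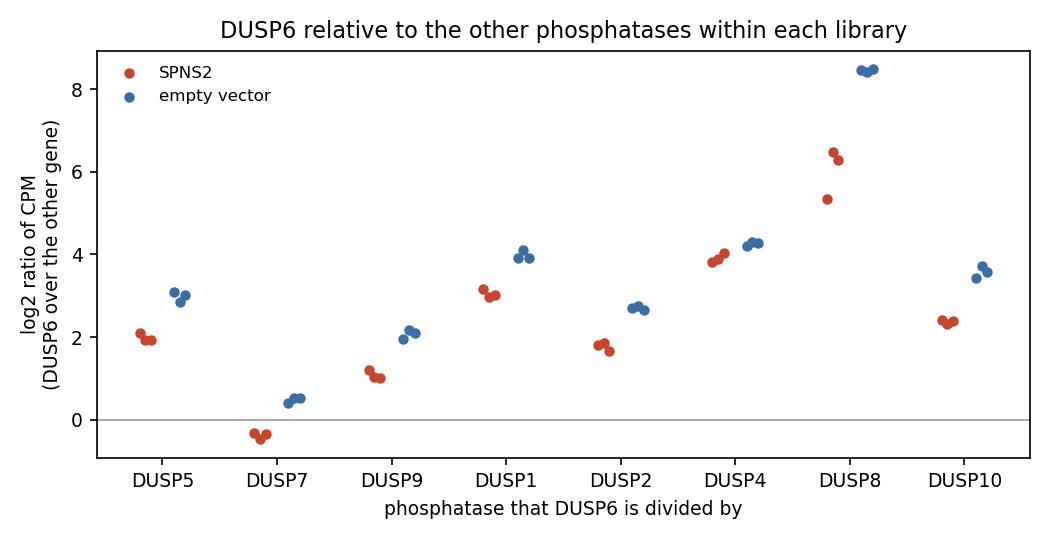
Log2 ratio of the CPM of DUSP6 to that of each other phosphatase, with 1 point per library, SPNS2 left of empty vector. The SPNS2 points lie below the empty vector points for every gene, by 0.35 (DUSP4) to 2.41 (DUSP8) on the log2 scale, and cross 0 for DUSP7.

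Per kilobase of transcript, the order of the members was the same in both groups except at the top. DUSP7 stood first with SPNS2, at 14.9 ± 0.505 CPM per kilobase, followed by DUSP6 at 8.68 ± 0.407, while DUSP6 stood first with the empty vector, at 17.8 ± 0.585, followed by DUSP7 at 16.9 ± 0.426 (SD, n = 3 each). The ranges of both genes did not overlap in either group. Below them came DUSP9, with 7.44 ± 0.214 CPM per kilobase in SPNS2 cells and 7.67 ± 0.387 in empty vector cells, and DUSP2, with 6.58 ± 0.525 in SPNS2 cells and 7.13 ± 0.194 in empty vector cells (SD, n = 3 each). DUSP5, DUSP10, DUSP1, DUSP4 and DUSP8 followed in that order, at 3.76, 2.73, 2.25, 0.449 and 0.126 CPM per kilobase on average with SPNS2 and 3.88, 2.46, 2.43, 0.727 and 0.0362 with the empty vector. DUSP10 and DUSP1 overlapped in the empty vector libraries and so did not differ beyond their spread there, and no other neighbours in either order overlapped. Lengths were those of the longest protein-coding transcript of GENCODE 29, and the order within each group was the same with the coding length. The true order of genes close in level can depend on which transcripts the cells make.

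The mRNA of the cytoplasmic ERK-selective trio was smaller in sum with SPNS2. DUSP6, DUSP7 and DUSP9 together gave 31.4, 31.2 and 30.5 CPM per kilobase in the SPNS2 libraries, against 42.6, 42.9 and 41.6 in the empty vector libraries. DUSP6 made up 29.1%, 26.8% and 28.0% of that sum with SPNS2, against 40.6%, 43.0% and 42.6% with the empty vector. DUSP7 was the largest part with SPNS2, at 47.8%, 49.3% and 47.0%, against 40.4%, 39.7% and 39.4% with the empty vector. With coding lengths the share of DUSP6 was 39.0%, 36.3% and 37.7% with SPNS2, against 51.5%, 53.8% and 53.4% with the empty vector.

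**Figure D4:**
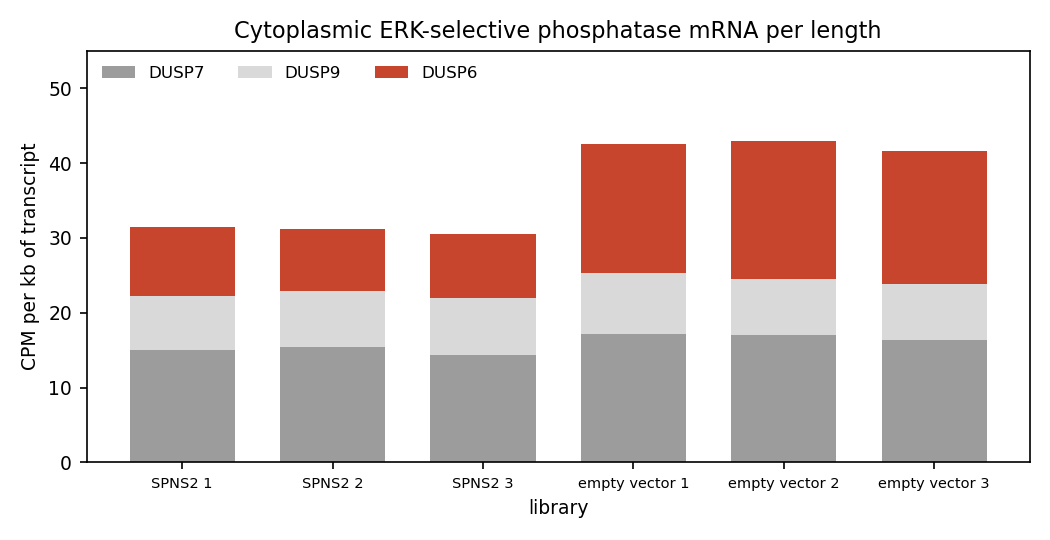
Stacked CPM per kilobase of transcript of DUSP7, DUSP9 and DUSP6 in each library, SPNS2 libraries on the left. The bars end at 30.5 to 31.4 in the SPNS2 libraries and at 41.6 to 42.9 in the empty vector libraries, and most of the gap lies in the DUSP6 part.

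AU-rich elements, whose core is ATTTA in DNA letters, mark many short-lived mRNAs, among them early response genes. In the 3′ UTR of the longest transcript, DUSP1 had 5.95 ATTTA per kilobase and DUSP2 had 4.57, more than 94.7% and 89.3% of the 11976 tested features with a 3′ UTR of at least 100 bases. The median over those features was 1.69, and 25.8% of them had none. The members that fell were not rich in it: DUSP4 had 1.51 per kilobase, DUSP6 had 0.495 and DUSP7 had 0. Of the members that did not pass, DUSP10 had 3.04, DUSP9 had 0.987 and DUSP5 had 0, and DUSP8 had 1.62.

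The genes with the profile most like that of DUSP6 were sought among 11604 features with a symbol and a mean of at least 1 CPM, by the root mean square distance of centred log2 CPM over the 6 libraries. They were LCP1 (distance 0.0741, log2 fold change -1.14), DBNDD2 (0.0870, -1.07), FHL1 (0.0955, -0.94), TBC1D9 (0.104, -0.97) and KCTD12 (0.113, -0.93). LCP1, the actin bundler of leukocytes, had 44.8, 46.4 and 43.8 CPM with SPNS2, against 98.0, 101 and 98.7 CPM with the empty vector. The likeness rests mainly on a similar gap between the groups.

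Other genes of the pathway are described by lists. Among genes that ERK signalling commonly induces, other than phosphatases, 9 of 14 tested fell and none rose, with a median log2 fold change of -0.42, against 12.6% lower among all features. ETV5, an ETS transcription factor, averaged 5.15 ± 0.796 CPM with SPNS2 and 14.5 ± 0.631 CPM with the empty vector, and SPRED2, an inhibitor of RAS signalling, averaged 18.2 ± 0.209 CPM with SPNS2 and 26.1 ± 0.995 CPM with the empty vector (SD, n = 3 each). SPRY2, another inhibitor of the pathway, had a log2 fold change of -0.31, and MYC, a growth regulator, one of -0.18. DUSP6 fell more than SPRED2 and less than ETV5 in these fitted values, a difference that was not tested. Of 19 early response genes tested, 7 fell (36.8%) and 2 rose (10.5%), with a median log2 fold change of -0.17, against 12.6% lower and 11.9% higher among all features. JUN, an AP-1 subunit, averaged 26.0 ± 0.727 CPM with SPNS2 and 41.8 ± 1.68 CPM with the empty vector (SD, n = 3 each), and JUND, KLF6 and IER2 fell by 0.29, 0.27 and 0.17 on the log2 scale. Of the 2 that rose, ZFP36, a destabiliser of AU-rich mRNAs, passed in all 13 alternative settings, while KLF10 no longer passed when any 1 library was left out.

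Of 11 MAP kinases tested, the family these phosphatases act on, 1 rose and 1 fell (9.09% each), near the 11.9% higher and 12.6% lower among all features, and the median log2 fold change was -0.06. MAPK11, the p38 beta kinase, rose to 15.4 ± 0.630 CPM with SPNS2, against 12.7 ± 0.522 CPM with the empty vector (SD, n = 3 each; adjusted p = 0.00654 by edgeR). MAPK6, the atypical kinase ERK3, averaged 31.4 ± 0.469 CPM with SPNS2 and 34.8 ± 1.92 CPM with the empty vector, and passed narrowly (adjusted p = 0.0409 by edgeR). The fall of MAPK6 did not pass without empty vector library 2 or without any SPNS2 library. MAPK14, the p38 alpha kinase, averaged 114 ± 4.54 CPM with SPNS2 and 122 ± 2.82 CPM with the empty vector (SD, n = 3 each), and did not pass (log2 fold change -0.10, adjusted p = 0.0687 by edgeR).

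Of 8 phosphatases of MAP kinases from other families, 1 fell (12.5%, near the 12.6% of all features) and none rose, with a median log2 fold change of -0.02. PPP5C, a serine and threonine phosphatase, fell to 126 ± 5.43 CPM with SPNS2, against 148 ± 3.48 CPM with the empty vector (SD, n = 3 each), at a log2 fold change of -0.23 (adjusted p = 0.000825 by edgeR). PTPN7, the tyrosine phosphatase of blood cells that binds ERK and p38, was far more abundant than any of the members in CPM, with 366 ± 11.3 CPM with SPNS2 and 362 ± 12.0 CPM with the empty vector (SD, n = 3 each), and did not pass (adjusted p = 0.810 by edgeR). PPP2CA and PPP2R1A, subunits of the phosphatase PP2A, did not pass either, with log2 fold changes of -0.07 and -0.04.

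Typical members of the atypical dual-specificity phosphatases lack the kinase-binding domain of the MAP kinase phosphatases. The list of them used here, which also holds slingshot phosphatases and STYX relatives, leaned the other way. Of 15 tested, 7 rose and none fell, with a median log2 fold change of 0.17, against 11.9% higher among all features. DUSP3, a small phosphatase that can act on ERK and JNK, rose to 117 ± 2.94 CPM with SPNS2, against 91.4 ± 0.607 CPM with the empty vector (log2 fold change 0.35, adjusted p = 1.78e-05 by edgeR), and DUSP22, which bears on JNK signalling, rose to 128 ± 2.46 CPM with SPNS2, against 113 ± 3.74 CPM with the empty vector (SD, n = 3 each). STYXL2, a catalytically inactive relative, rose by 0.76 and SSH1, a slingshot phosphatase that acts on cofilin and not on MAP kinases, rose by 0.22 on the log2 scale. These 4 passed in all 13 alternative settings. Leaving out SPNS2 library 3 or empty vector library 3 lowered the number that rose to 4, and leaving out SPNS2 library 2 gave 1 gene of the list, DUSP12, that fell. DUSP14 was listed at 0 in SPNS2 library 2, against 369 and 390 counts in the other SPNS2 libraries and 186 to 376 counts in the empty vector libraries, and was not called in any fit.

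**Figure D5:**
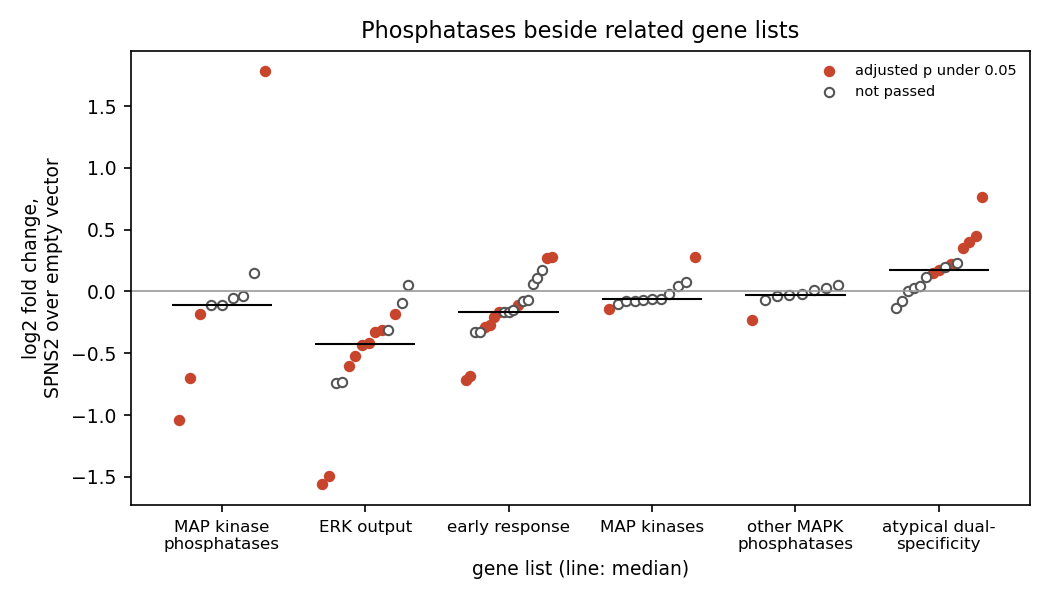
Log2 fold change, SPNS2 over empty vector, of each tested gene in the phosphatase family and the 5 related lists, filled where the adjusted p was under 0.05, with a line at the median. Medians run from -0.42 (ERK output) to 0.17 (atypical dual-specificity phosphatases, with slingshot and STYX relatives).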

How the data were processed

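Polyadenylated RNA of 6 ME-1 libraries, 3 with SPNS2 and 3 with the empty vector, was made into stranded libraries, per the labels' protocols. The authors deposited estimated counts per gene, as whole numbers. Salmon is named, with no version, in the submitters' processing notes; the genome build and annotation are not stated there. Symbols came from a gene name table for 34329 of 34370 Ensembl IDs. Counts were filtered with filterByExpr (minimum count 10, minimum total 15), scaled by TMM and fitted on group alone in edgeR 4.0.16 (quasi-likelihood test, R 4.3.3). Benjamini-Hochberg adjustment ran over all 13308 features tested, and calls needed an adjusted p under 0.05 and no set fold. Standard errors are the size of the log2 fold change divided by the root of F. Ratios used log2 CPM with a prior count of 2. Libraries of 1 group all differed beyond sampling noise (chi-square per degree of freedom 2.89 to 5.86). The fits were tested on counts simulated with known changes and with the spread of these libraries fitted as a trend over expression level. Differences in spread between genes of the same level were not simulated, so their effect on the calls was not tested. That test cannot show whether the libraries within a group are separate cultures. Alternatives were other scalings and filters, DESeq2 1.42.0, limma 3.58.1 voom, a replicate block and leaving out each library. The members, classes and lists were chosen with earlier results of these data known. Genes were named by rule: all members, up to 4 genes with the smallest p of each list, and the 5 nearest profiles to DUSP6. PTPN7, DUSP14, DUSP8P5, DUSP12, ZFP36, KLF10 and the markers named beyond that rule were chosen after their values were seen.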

Additional observations from a re-analysis of the deposited data

How the results depend on the processing

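Over 13 alternative settings, DUSP6 (-1.08 to -1.01), DUSP4 (-0.79 to -0.62) and DUSP7 (-0.20 to -0.15) passed in each, and DUSP1, DUSP2, DUSP5, DUSP9 and DUSP10 passed in none. DUSP5 ranged from -0.12 to 0.06 with a library left out, turning positive without empty vector library 2. Among members, the rise of DUSP8 depended on the setting, and with it the members called higher (1) and the JNK and p38-selective members called higher (1), both 0 at a mean CPM of at least 1, where DUSP8 was not tested and the median of that class was 0.15, and both 0 with DESeq2, which gave DUSP8 no adjusted p. With each library left out in turn, members called higher ranged from 0 to 1 and members called lower stayed at 3, JNK and p38-selective members called higher ranged from 0 to 1, and the median of that class ranged from 0.68 to 1.09. MAP kinases called lower (1) were 0 with upper quartile scaling, DESeq2 or the replicate block, 2 with no filter, and 0 to 1 with a library left out. Early response genes called higher (2) were 1 with no filter, DESeq2 or the replicate block, and 1 to 2 with a library left out. Those called lower (7) were 5 to 6 with a library left out, and genes of the ERK output list called lower (9) were 7 to 10. Genes of the atypical phosphatase list called higher were 4 to 6 with a library left out, and those called lower 0 to 1. Over all genes, leaving out a library gave 1079 to 1294 called higher and 1167 to 1444 called lower, against 1580 and 1683. The labels share replicate numbers, but same-numbered libraries did not deviate together (correlations 0.031, 0.038 and -0.019, and SPNS2 library 3 correlated best with empty vector library 1), so the numbers were not taken as pairs. With the replicate block 1301 genes were called higher and 1422 lower, and the same 4 members were called. DUSP8, at 5 to 30 counts a library, is the member whose value depth limits most.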
